A study of Mus musculus with 10 samples.

Results

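The transcripts described here encode the guanylate-binding proteins (GBPs) and immunity-related GTPases (IRGs), 2 families of GTP-hydrolysing proteins that cells make in response to interferon-gamma. They were chosen by name, as the genes Gbp2, Gbp3, Gbp5, Gbp6, Gbp7, Igtp, Irgm1, Irgm2, Iigp1 and Ifi47 of a table of expression in blood neutrophils. All 10 were found among the 54146 genes of the table. Of these, 8 reached at least 1 RPKM (reads per unit of gene length and of library size) in at least 2 libraries and were tested. Gbp6 and Iigp1 did not.

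The study compared neutrophils of BALB/c nu/nu mice that carried human kidney cancer cells with neutrophils of mice that did not. Cells positive for CD11b and Ly-6G were sorted from peripheral blood 14 days after the kidney had been inoculated. The OS5K groups, numbered 1, 2 and 3, had received OS5K cells, derivatives of the human clear cell renal cell carcinoma line OS-RC-2. The OSPa group had received OSPa cells, read here as the parental form of that line, and the sham group had received vehicle. Each of the 5 groups had 2 libraries, and no group received a drug. All mice were athymic nudes, which lack most T cells, so the tumour grew in a host without normal T cell immunity. The labels do not say whether the 2 libraries of a group came from separate animals, so p-values speak only of the spread among these libraries. The tumour cells were human and the gene table was that of the mouse.

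Interferon-gamma binds a receptor that signals through the kinases JAK1 and JAK2 to transcription factors that bind a DNA element called GAS. Factors activated by type I interferon bind another element, the ISRE, and IRF1, itself a product of interferon-gamma signalling, binds ISRE-like sites as well. GBPs and IRGs are among the genes most strongly induced by this pathway in mouse cells, where they gather on the vacuoles of intracellular pathogens and on damaged membranes.

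The members sit in clusters in the mouse genome (mm10, positions as in the deposited table). Gbp5 (chr3:142493978-142522344), Gbp7 (chr3:142530342-142550149), Gbp3 (chr3:142560026-142573209) and Gbp2 (chr3:142620602-142638008) follow each other on the plus strand of chromosome 3. Gbp6 lies in the other GBP cluster of the mouse, on chromosome 5. Irgm1 (chr11:48861968-48871683, minus strand), Ifi47 (chr11:49076587-49096974, plus strand), Igtp (chr11:58199556-58207591, plus strand) and Irgm2 (chr11:58199618-58222782, plus strand) lie on chromosome 11. The gene model of Irgm2 spans nearly all of Igtp. How reads with several matches were assigned is not given in the sources used here, and 15.9% of the 31-base words of Igtp also occur in Irgm2. The values of these neighbours are therefore uncertain where they share sequence, as are those of Gbp6, with 74.2% of its 31-base words in other genes, and to a lesser degree Gbp7 (14.7%), Irgm2 (10.7%), Gbp3 (5.64%) and Gbp2 (4.85%). Irgm1 shared least, with 2.2%.

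RefSeq promoter sequence (GRCm38.p6) was found for 8 of the 10 members, with a pair of start sites for Gbp3. In the 250 bases before each start, a script looked on both strands for an ISRE-type word, GAAA followed by 2 bases of any kind and GAAA again, and for a GAS-type word, TTCNNNGAA, which reads the same on both strands. The ISRE-type word was present in 7 of the 8 genes, against 2.98% of 32536 mouse promoters of the same length. The GAS-type word was present in 4 of the 8 genes, against 7.04% of all promoters, and both words were present in the same 4 genes, Gbp5, Gbp7, Igtp and Irgm2, against 0.329%. The window, the words and the genes shown were chosen after the expression values had been seen, and a match describes letters, not a bound site. The 110 bases next to the start are given for 6 members, 5′ to 3′ on the strand of the gene, because they show the 3 arrangements found: an ISRE-type word alone (Gbp2, Irgm1), both words (Gbp7, Igtp, Irgm2) and neither (Ifi47). Capitals mark the matched words.
Gbp2: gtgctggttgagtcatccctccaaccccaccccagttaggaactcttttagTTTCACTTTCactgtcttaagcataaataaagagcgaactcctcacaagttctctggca
Irgm1: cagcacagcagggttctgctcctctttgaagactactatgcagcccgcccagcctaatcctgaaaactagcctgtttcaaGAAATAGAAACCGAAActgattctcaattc
Gbp7: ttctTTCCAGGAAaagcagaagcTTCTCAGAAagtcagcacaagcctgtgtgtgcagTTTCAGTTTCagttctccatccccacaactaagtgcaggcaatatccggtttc
Igtp: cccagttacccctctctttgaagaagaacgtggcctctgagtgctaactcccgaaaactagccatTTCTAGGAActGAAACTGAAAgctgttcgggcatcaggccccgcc
Irgm2: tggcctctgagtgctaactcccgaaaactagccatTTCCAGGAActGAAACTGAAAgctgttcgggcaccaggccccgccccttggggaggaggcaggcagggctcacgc
Ifi47: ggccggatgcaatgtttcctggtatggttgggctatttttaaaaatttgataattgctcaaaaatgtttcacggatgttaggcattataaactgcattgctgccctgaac

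These stretches are chr3:142620553-142620662 (plus) for Gbp2, chr11:48871421-48871530 (minus) for Irgm1, chr3:142530226-142530335 (plus) for Gbp7, chr11:58199446-58199555 (plus) for Igtp, chr11:58214867-58214976 (plus) for Irgm2 and chr11:49076477-49076586 (plus) for Ifi47. In Igtp and Irgm2 the GAS-type word stood 2 bases before the ISRE-type word. In Irgm1, 2 ISRE-type words overlapped, and the same was seen before one start of Gbp3. Gbp7 held 2 GAS-type words. For Ifi47 no match says only that these letters are not in this window. The deposited gene models of Gbp2, Gbp3, Gbp5, Irgm1 and Irgm2 begin farther upstream than the RefSeq start, so a start used in these cells may lie elsewhere.

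**Figure D1:**
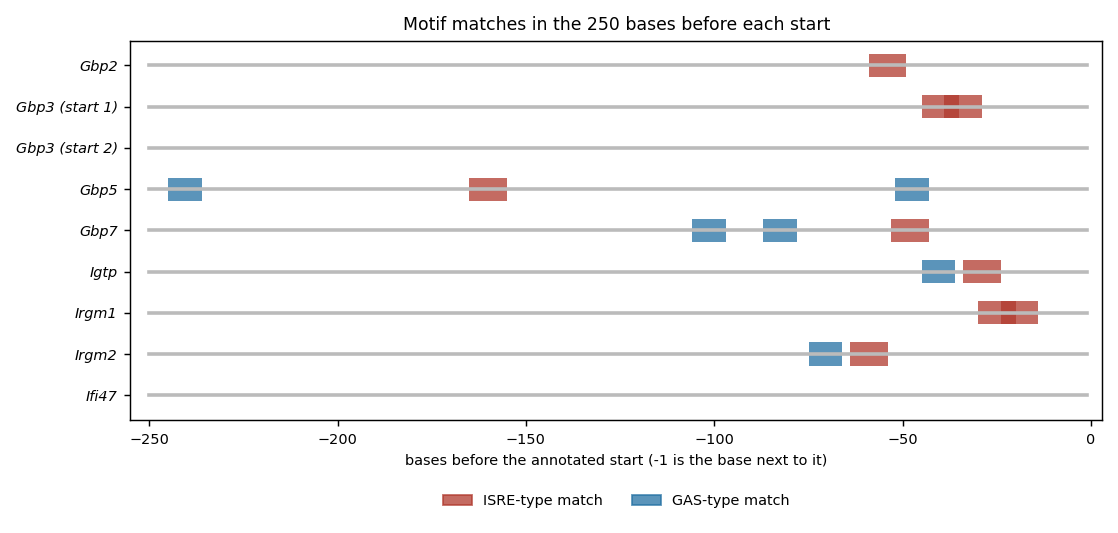
Each line is the 250 bases before a RefSeq start of a member (horizontal axis, bases before the start), with boxes for ISRE-type and GAS-type words. Of the 8 genes, 7 held an ISRE-type word, and Gbp5, Gbp7, Igtp and Irgm2 held both types.

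The libraries were of even depth. Whole reads recovered from the RPKM steps summed to between 13765571 and 15514538 a library. The sorted cells carried neutrophil markers at a summed 63900 to 84800 RPKM over 10 genes in every library, among them S100a8 (19790 to 32630 RPKM) and Ly6g (52.7 to 100.8 RPKM). Red cell transcripts were also abundant, with 20800 to 122000 RPKM over 11 genes. Markers of NK and T cells summed to 20.9 to 37.9 RPKM over 15 genes, and those of monocytes to 208 to 312 RPKM over 15 genes. In bulk samples such as these, fewer cells of a type and less RNA per cell cannot be told apart.

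The GTPases set 2 libraries apart from the other 8. For each of the 8 tested members the highest value was in replicate 2 of the sham group, and the second highest was in replicate 2 of the OSPa group. The other sham library, the other OSPa library and the 6 OS5K libraries had lower values. Over the highest of these 8, OSPa replicate 2 was from 1.21 (Gbp3) to 2.56 (Ifi47) times as high in RPKM. Over the 8 members, the summed level was 139.8 and 132.0 RPKM in OS5K #1, 139.6 and 157.7 RPKM in OS5K #2, 177.5 and 153.1 RPKM in OS5K #3, 151.9 and 288.2 RPKM in OSPa, and 180.1 and 598.9 RPKM in sham. Sham replicate 2 was the highest of the 10 libraries for 6.63% of all 8039 tested genes.

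**Figure D2:**
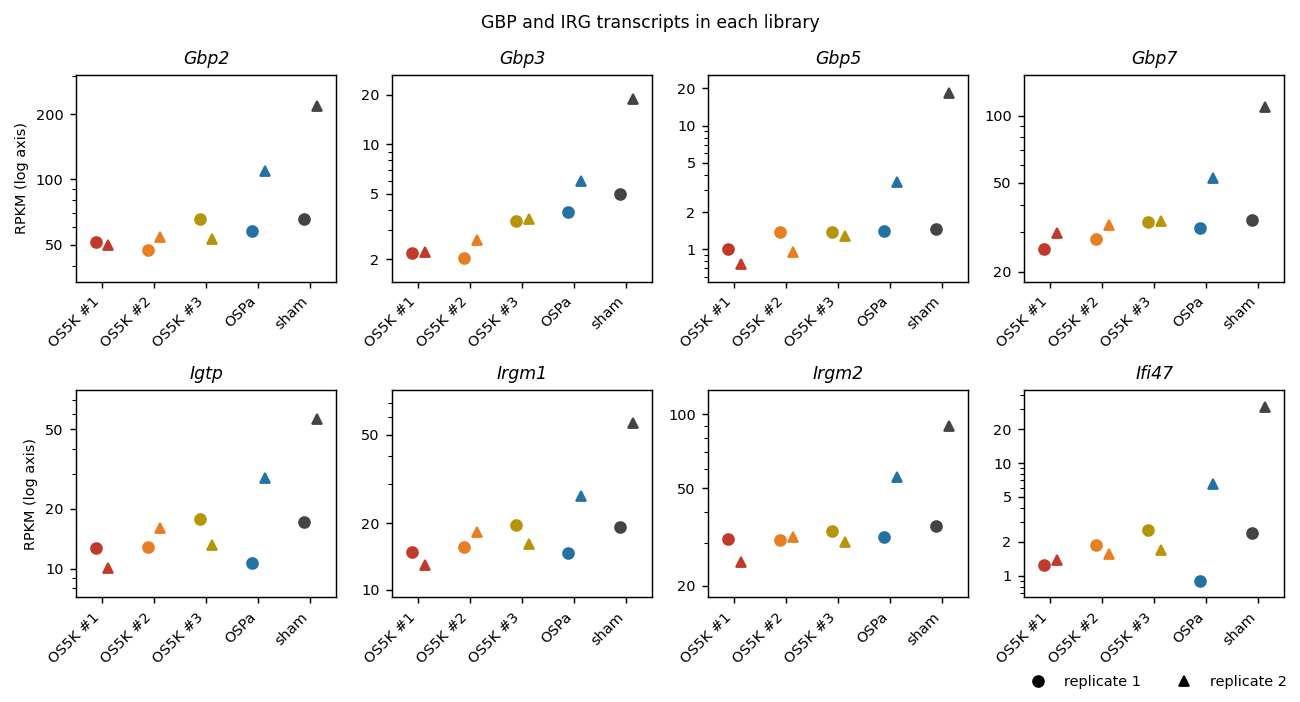
Each panel shows 1 GTPase, with RPKM on a log axis, groups along the horizontal axis, circles for replicate 1 and triangles for replicate 2. In all 8 panels the sham triangle is highest and the OSPa triangle is next, above the other 8 libraries.

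Gbp2 is the GBP known in the mouse for coating the vacuoles of the parasite Toxoplasma and for acting on bacterial membranes. It was at 47.2, 52.4 and 65.9 RPKM in the OS5K libraries (lowest, median and highest of 6), at 57.5 and 109 RPKM in the OSPa libraries, and at 65.7 and 218 RPKM in the sham libraries. The lower OSPa and lower sham values lay within the OS5K range, so the groups overlapped. Between 1719 and 7854 reads a library stood behind these values.

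Gbp7, a GBP linked in mouse macrophages to assembly of the phagocyte oxidase, was at 25.2, 31.1 and 33.9 RPKM in the OS5K libraries (lowest, median and highest), at 31.4 and 52.8 RPKM in the OSPa libraries, and at 34.0 and 110 RPKM in the sham libraries. All OS5K libraries were below both sham libraries, although the lower sham value was just above the highest OS5K value. With 2162 to 8810 reads a library, Gbp7 had the most reads of the members in sham replicate 2.

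Gbp3 and Gbp5 were the low members of the chromosome 3 cluster. Gbp3 was at 2.05, 2.42 and 3.52 RPKM in the OS5K libraries (lowest, median and highest), at 3.87 and 5.99 RPKM in the OSPa libraries, and at 4.96 and 18.9 RPKM in the sham libraries. Every OS5K library was below every OSPa and sham library for Gbp3. Gbp5, which in mouse macrophages promotes assembly of the NLRP3 inflammasome, was at 0.765, 1.13 and 1.39 RPKM in the OS5K libraries, at 1.41 and 3.52 RPKM in the OSPa libraries, and at 1.45 and 18.5 RPKM in the sham libraries. The OS5K libraries again lay below the OSPa and sham libraries, here by a narrow margin in replicate 1. Gbp5 had 73 to 1760 reads a library and Gbp3 97 to 885.

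Igtp, Irgm1 and Irgm2 are the regulatory IRGs, which sit on the membranes of the host cell and keep the effector IRGs from acting there. Irgm1, required in mice for resistance to mycobacteria, was at 12.96, 15.9 and 19.6 RPKM in the OS5K libraries (lowest, median and highest), at 14.6 and 26.6 RPKM in the OSPa libraries, and at 19.3 and 56.8 RPKM in the sham libraries. Irgm2 was at 25.1, 30.8 and 33.5 RPKM in the OS5K libraries, at 31.5 and 55.4 RPKM in the OSPa libraries, and at 35.2 and 89.5 RPKM in the sham libraries. Igtp was at 10.05, 13.01 and 17.8 RPKM in the OS5K libraries, at 10.7 and 28.4 RPKM in the OSPa libraries, and at 17.1 and 56.1 RPKM in the sham libraries. For Igtp and Irgm1 the 6 OS5K libraries overlapped with OSPa and with sham, while for Irgm2 all OS5K libraries were below both sham libraries.

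The effector IRGs were low or near 0. Ifi47, also called Irgd, was at 1.24, 1.63 and 2.53 RPKM in the OS5K libraries (lowest, median and highest), at 0.900 and 6.47 RPKM in the OSPa libraries, and at 2.40 and 31.5 RPKM in the sham libraries. Its value in OSPa replicate 1 was below all 6 OS5K libraries. Iigp1 on chromosome 18, also called Irga6, which loads onto the Toxoplasma vacuole, was listed at 0 to 0.0895 RPKM, from 23 reads over the 10 libraries. Gbp6 was listed at 0 to 0.0244 RPKM, from 5 reads over the 10 libraries. No fold is given for Iigp1 and Gbp6 at this depth.

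Few genes differed as much within the sham pair as the tested GTPases did. The median log2(RPKM + 1) difference between replicate 2 and replicate 1 of sham was 1.69 over the 8 members and -0.10 over all tested genes. All 8 members were at least 2-fold higher in sham replicate 2 on the log2(RPKM + 1) scale, as this limit is used throughout, against 50 of 8039 tested genes (0.622%). The differences on that log2 scale were 3.26 for Ifi47, 2.99 for Gbp5, 1.74 for Gbp3, 1.71 for Gbp2, 1.66 for Gbp7, 1.66 for Igtp, 1.51 for Irgm1 and 1.32 for Irgm2. As ratios of RPKM they ran from 2.54 to 13.1. Even against the highest of the other 9 libraries, sham replicate 2 was 1.61 to 5.26 times higher in RPKM.

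The OSPa pair was split the same way, by less. The median log2 difference between replicate 2 and replicate 1 of OSPa was 0.87 over the 8 members and -0.01 over all tested genes. Ifi47 (1.98) and Igtp (1.33) were at least 2-fold higher in OSPa replicate 2, or 2 of 8 members, against 0.697% of tested genes. The smallest difference was that of Gbp3, 0.52. In the OS5K pairs the median member difference was -0.11 for line 1, 0.20 for line 2 and -0.21 for line 3, with 0 of 8 members at least 2-fold higher in replicate 2, against 0.585%, 0.373% and 0.522% of tested genes in lines 1, 2 and 3. The labels do not say what a replicate number stands for, so whether replicate 2 of sham and replicate 2 of OSPa share more than their number is not known.

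Nearby genes of the pathway were followed by lists that hold none of the members. Of 8 other tested GBPs, IRGs and giant GTPases, 3 were at least 2-fold higher in sham replicate 2 than in sham replicate 1, Gbp2b, Gvin1 and Gm4070, and 0 of 8 in OSPa replicate 2. Gbp2b, the neighbour of Gbp2 on chromosome 3, was at 41.5 to 50.9 RPKM in the OS5K libraries, at 55.1 and 97.0 RPKM in the OSPa libraries, and at 53.4 and 177 RPKM in the sham libraries. It shares 4.61% of the 31-base words of Gbp2. Tgtp2, an effector IRG below the filter, was listed at 0.0489 to 0.202 RPKM in the OS5K and OSPa libraries, and at 0 and 1.88 RPKM in the sham libraries.

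The ligand was near 0, and both receptor chains were present in every library. Ifng was at 0 to 0.0997 RPKM in every library. Ifngr1 and Ifngr2, the chains of the receptor, were at 64.4 to 95.0 and at 54.4 to 64.5 RPKM over the 10 libraries. Of 14 tested genes of interferon-gamma signalling, 3 were at least 2-fold higher in sham replicate 2 than in sham replicate 1. Among them were Irf1 and Socs1, which encodes an inhibitor of JAK kinases. Of the same 14 genes, 1 was at least 2-fold higher in OSPa replicate 2, Irf1.

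Irf1 was at 69.4 to 105.9 RPKM in the OS5K libraries, at 59.8 and 134.8 RPKM in the OSPa libraries, and at 86.7 and 197.8 RPKM in the sham libraries. Socs1 was at 2.82 to 4.26 RPKM in the OS5K libraries, at 3.778 and 4.198 RPKM in the OSPa libraries, and at 3.60 and 9.77 RPKM in the sham libraries. For Irf1, as for the GTPases, sham replicate 2 was highest and OSPa replicate 2 was next.

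Among 24 other tested targets of interferon-gamma, 5 were at least 2-fold higher in sham replicate 2 than in sham replicate 1. Cd74, the invariant chain of MHC class II, was at least 2-fold lower, which was not counted over all tested genes. The 5 were Cd274, which encodes PD-L1, the MHC class I regulator Nlrc5, the peptide transporter Tap1, and the immunoproteasome subunits Psmb9 and Psmb10. Cd274 was at 12.2 to 17.3 RPKM in the OS5K libraries, at 12.9 and 33.5 RPKM in the OSPa libraries, and at 15.9 and 78.4 RPKM in the sham libraries. Nlrc5 was at 1.15 to 1.67 RPKM in the OS5K libraries, at 0.778 and 3.50 RPKM in the OSPa libraries, and at 1.35 and 10.7 RPKM in the sham libraries. Of 35 tested type I interferon genes, 6 were at least 2-fold higher in sham replicate 2, with a median log2 difference of 0.42 and 26 of 35 higher. The 6 were Zbp1, Ifit2, Herc6, Stat2, Xaf1 and Ifit3. Zbp1 was at 54.3 RPKM in sham replicate 2 and 15.3 RPKM in sham replicate 1, and Ifit2 at 37.75 and 11.74 RPKM. In the OSPa pair the median was 0.38, with 29 of 35 higher in replicate 2. Some abundant ones differed little or were lower in sham replicate 2 than in sham replicate 1: Oasl1 was at 111.4 RPKM in replicate 2 and 111.6 RPKM in replicate 1, and Ifi27l2a at 652.6 and 771.6 RPKM. In the OSPa pair both were higher in replicate 2, Oasl1 at 103.9 RPKM against 68.2 RPKM in replicate 1 and Ifi27l2a at 530.2 RPKM against 342.5 RPKM.

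Genes that encode partners of the GTPases in cell-autonomous defence, such as caspases, inflammasome proteins and autophagy factors, had a median log2 difference of 0.03 in the sham pair, with 0 of 17 at least 2-fold higher in replicate 2. Casp1 was at 55.8 RPKM in sham replicate 2 and 29.6 RPKM in sham replicate 1. Casp4, the caspase that GBPs help to bind bacterial lipopolysaccharide, was at 24.5 RPKM in sham replicate 2 and 16.7 RPKM in sham replicate 1.

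**Figure D3:**
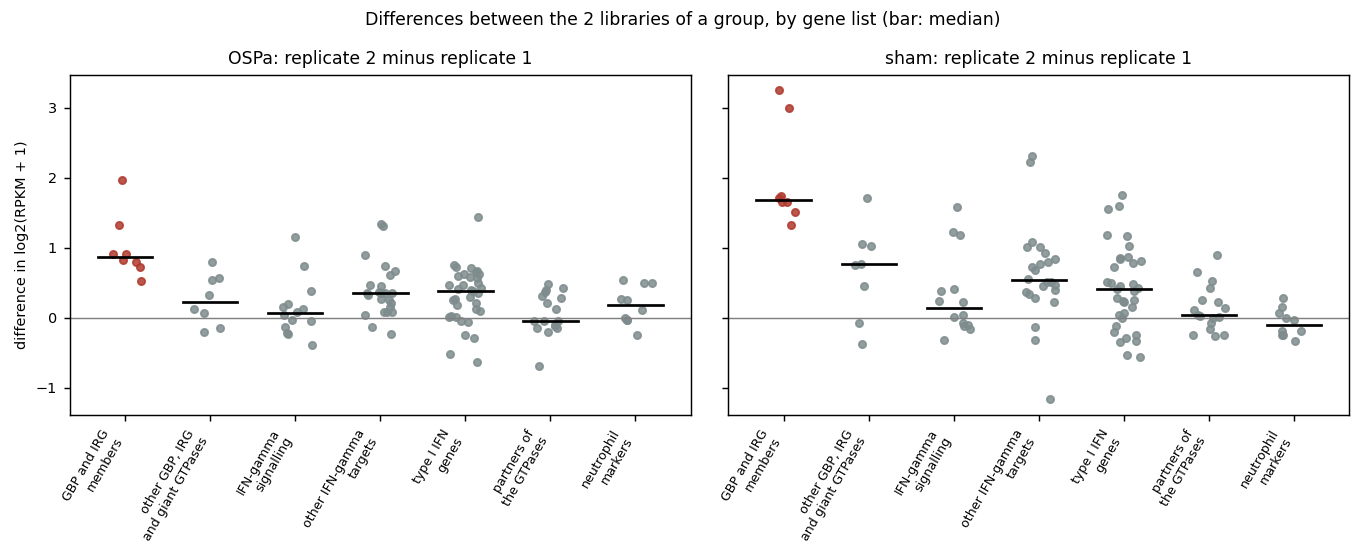
Each point is a tested gene of a list, placed by its log2(RPKM + 1) in replicate 2 minus that in replicate 1, for OSPa (left) and sham (right), with a bar at the median of the list. The medians of the GTPases are 0.87 in OSPa and 1.69 in sham, above those of the other 6 lists drawn, which hold interferon genes, partners and neutrophil markers and leave out platelet markers (median 1.07 in OSPa).

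Markers of other cells were read beside these differences. The NK and T cell markers, whose cells are known sources of interferon-gamma, summed to 20.9 to 35.2 RPKM in the OS5K libraries, to 24.6 and 21 RPKM in the OSPa libraries, and to 37.9 and 27.6 RPKM in the sham libraries, with replicate 1 given before replicate 2. The sum was thus lower in the GTPase-high library of both pairs, and the T cell marker Cd3e was at 0 to 0.0178 RPKM throughout, while Cd3d was at 13.7 to 22.3 RPKM. Monocyte markers summed to 223 to 312 RPKM in the OS5K libraries, to 208 and 235 RPKM in the OSPa libraries, and to 295 and 219 RPKM in the sham libraries. Platelet markers summed to 572 to 1510 RPKM in the OS5K libraries, to 393 and 690 RPKM in the OSPa libraries, and to 649 and 209 RPKM in the sham libraries. In sham replicate 2 all 10 platelet markers were lower than in sham replicate 1, 8 of them at least 2-fold. How many of all tested genes were that much lower was not counted. In OSPa replicate 2 all 10 platelet markers were higher than in OSPa replicate 1. Of these, 6 were at least 2-fold higher, against 0.697% of tested genes. Red cell markers summed to 45000 to 122000 RPKM in the OS5K libraries, to 20800 and 27900 RPKM in the OSPa libraries, and to 61200 and 52700 RPKM in the sham libraries, with 8 of 9 higher in OSPa replicate 2 than in OSPa replicate 1 and 1 of 9 higher in sham replicate 2 than in sham replicate 1. B cell markers (88.1 RPKM in sham replicate 2 and 153 RPKM in sham replicate 1) and those of dendritic cells with MHC class II (55.2 and 116 RPKM) were also lower in sham replicate 2. The part of these cells in the GTPase difference was not tested.

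The first comparison asked how neutrophils of OS5K-bearing mice differed from those of OSPa-bearing mice. All 8 members had a lower mean in OS5K than in OSPa, by a log2 fold change of -0.69 for Gbp3, -0.64 for Gbp5, -0.56 for Gbp2, -0.49 for Ifi47, -0.45 for Irgm2, -0.42 for Gbp7, -0.35 for Igtp and -0.28 for Irgm1. The median of these was -0.47, against 0.02 over all tested genes, 45.4% of which were below 0. None of the 8 passed limma's test at an adjusted p under 0.05, against 28 of 8039 tested genes (0.348%). The count at an unadjusted p under 0.05 was 0 of 8, against 7.89% of tested genes, and limma-voom on recovered reads called 0 of 8. With only OS5K and OSPa in the fit, that unadjusted count was 5 of 8. The share of all tested genes at that level was not counted for this fit, so the 5 of 8 has no background beside it. There 0 of 8 members were called, against 33 of all tested genes, and limma's lowest adjusted p was 0.123. In the fit of all groups the log2 fold change of Gbp3 had an SE of 0.36 and that of Ifi47 an SE of 0.74. The adjusted p values of limma in that fit lay between 0.749 and 0.987.

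Markers of other cells also differed between OS5K and OSPa. Red cell markers had a median log2 fold change of 1.52, with 9 of 9 above 0 and 3 called higher by limma. Monocyte markers had a median of 0.93, with 12 of 13 above 0 and 3 called higher, Ms4a4a, Ms4a6c and Ccr2. Platelet markers had a median of 0.69, with 10 of 10 above 0 and 0 called. Their part in the GTPase values was not tested.

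Without overlap, all 6 OS5K libraries were below both OSPa libraries for Gbp3 and Gbp5, or 2 of 8 members, against 2.9% of tested genes. OSPa replicate 2 decided part of this comparison. Without it the median member log2 fold change was -0.05, and Igtp (0.32), Irgm1 (0.13) and Ifi47 (0.50) were higher in OS5K than in the lone OSPa library left.

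Each OS5K line was also set against OSPa, and the median member log2 fold change was -0.61 for OS5K #1, -0.45 for OS5K #2 and -0.33 for OS5K #3. Without OSPa replicate 2 these medians were -0.17, -0.037 and 0.069. No member was called in any of these by limma (against 0.348%, 0% and 0.199% of tested genes called), with 0 of 8 at an unadjusted p under 0.05 in each, against 6.12%, 6.59% and 9.88% of tested genes, and limma-voom called 0 of 8 in each. Among the lines, Gbp3 was at 2.19 and 2.22 RPKM in OS5K #1, 2.05 and 2.63 RPKM in OS5K #2, and 3.43 and 3.52 RPKM in OS5K #3. Its values in OS5K #3 were above those of the other lines, but limma's F test among the lines gave an adjusted p of 0.857 for Gbp3 and up to 0.969 for the other members. That test called 0% of all genes, limma-voom called 0 of 8 members, and 0 of 8 members had an unadjusted p under 0.05, against 6.66% of tested genes.

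The second comparison set OSPa-bearing mice against sham mice, that is, the parental tumour against none. Mean log2 values were lower in OSPa for all 8 members, with log2 fold changes from -1.48 (Ifi47, SE 0.90) to -0.42 (Irgm2, SE 0.38) and a median of -0.76, against -0.04 over all tested genes, 58.7% of which were below 0. None passed limma's test, in a comparison that called 0% of tested genes, and the adjusted p values lay between 0.800 and 0.843. The count at an unadjusted p under 0.05 was 0 of 8, against 5.97% of tested genes, and limma-voom called 0 of 8. Without sham replicate 1, which leaves the GTPase-high sham library alone, the median member log2 fold change was -1.55. Without OSPa replicate 2 it was -1.15. The libraries of the 2 groups overlapped for all 8 members, while 22.2% of tested genes had both OSPa libraries below both sham libraries.

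The direction of that comparison rested on sham replicate 2. Without it, 7 of 8 members were higher in OSPa than in the sham library left, by log2 fold changes of 0.43 for Gbp5, 0.27 for Gbp2, 0.25 for Gbp7, 0.24 for Irgm2, 0.15 for Ifi47, 0.036 for Irgm1 and 0.033 for Igtp, and Gbp3 was at -0.03. With OSPa replicate 2 left out as well, all 8 were again lower in OSPa, with a median of -0.24.

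The third comparison set the OS5K-bearing mice against sham mice. The log2 fold changes were -1.97 for Ifi47 (SE 0.74), -1.71 for Gbp5 (SE 0.61), -1.59 for Gbp3 (SE 0.36), -1.15 for Gbp2 (SE 0.39), -1.14 for Igtp (SE 0.43), -1.003 for Irgm1 (SE 0.35), -0.99 for Gbp7 (SE 0.36) and -0.87 for Irgm2 (SE 0.31). Their median was -1.15, against -0.02 over all tested genes, 54.5% of which were below 0. None passed limma's test at an adjusted p under 0.05, which called 0% of tested genes, and limma-voom called 0 of 8. The smallest adjusted p was 0.187, for Gbp3, and the highest was 0.399. At an unadjusted p under 0.05 all 8 members were lower in OS5K, against 4.94% of tested genes that were lower at that level. By limma-voom 4 of 8 members had an unadjusted p under 0.05, where the share of all tested genes was not counted.

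Gbp3, Gbp5, Gbp7 and Irgm2 had all 6 OS5K libraries below both sham libraries, or 4 of 8 members, against 5.17% of tested genes. Without sham replicate 2 the median member log2 fold change was -0.27, and 1 of 8 members, Gbp3 (-0.72, limma adjusted p = 0.534), had an unadjusted p under 0.05. Without sham replicate 1, limma called 6 members lower in OS5K, namely Gbp2, Gbp3, Gbp5, Gbp7, Irgm1 and Ifi47, out of 30 genes called in all, with a median log2 fold change of -1.99. In that setting the lone sham library is the GTPase-high one, and it is assumed to vary like the other groups.

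Of the lists beside the members, the other GBPs and IRGs had a median log2 fold change of -0.35 between OS5K and sham, with 0 of 8 called by limma and 3 of 8 lower at an unadjusted p under 0.05. Gbp2b was at -1.06 (SE 0.37) and Gbp9 at -0.41 (SE 0.12). Of 14 genes of interferon-gamma signalling, 0 were called and 3 were lower at an unadjusted p under 0.05, among them Socs3 (-0.51, SE 0.17) and Socs1 (-0.65, SE 0.27). Of 24 other interferon-gamma targets, 0 were called, 17 were lower and 1, Ly6a, was higher at an unadjusted p under 0.05, with a median of -0.54. Of 35 type I interferon genes, 0 were called, 21 were lower and 2 higher at that level, also with a median of -0.54. Partners of the GTPases had a median of -0.18, with 0 of 17 called and 3 lower at an unadjusted p under 0.05. Of all tested genes, 0% were called and 4.94% were lower at that level, with those higher not counted. Sham replicate 2 enters these differences too. In it 21 of 24 other interferon-gamma targets and 26 of 35 type I interferon genes were higher than in sham replicate 1. The lists were not counted without it.

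All 4 tumour groups together gave a median member log2 fold change of -1.03 against sham, with all 8 members and 55.9% of tested genes below 0. It had limma adjusted p values between 0.321 and 0.506, with 0 of 8 called, where 0% of tested genes were called and limma-voom called 0 of 8. At an unadjusted p under 0.05 all 8 were lower in the tumour groups, against 4.79% of tested genes. That count was 1 of 8 by limma-voom and 4 of 8 with no filter on low values, settings for which the share of all tested genes was not counted. For no member did the tumour libraries all lie below both sham libraries, against 3.28% of tested genes. Without sham replicate 2 the median was -0.17, and without sham replicate 1, which leaves the GTPase-high sham library alone, it was -1.88. The comparisons with sham share its 2 libraries, and those with OSPa share its 2 libraries.

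**Figure D4:**
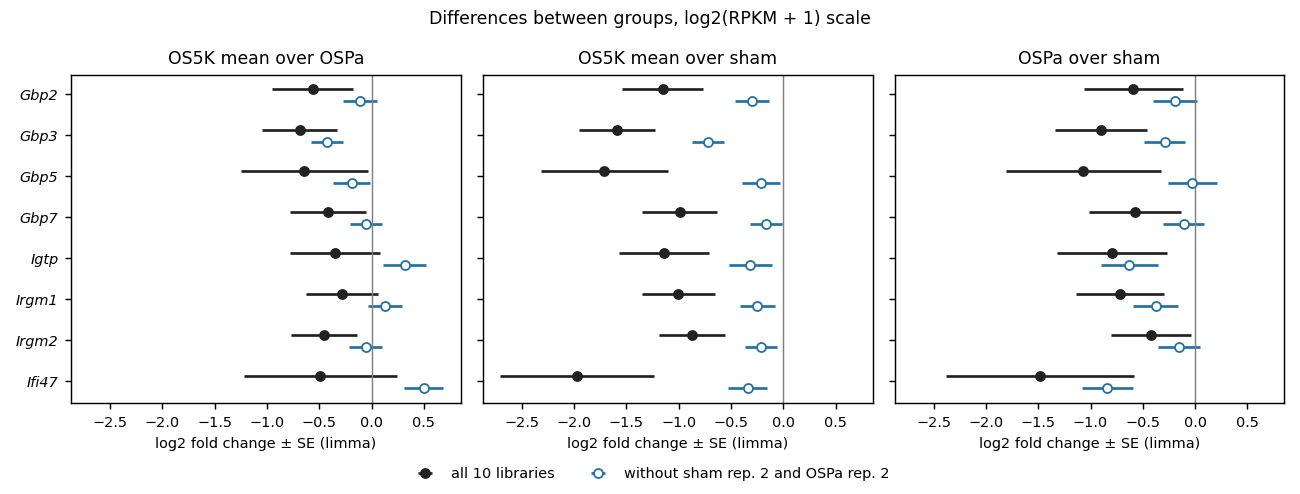
Points are log2 fold changes of each GTPase on the log2(RPKM + 1) scale with the SE of limma as bars, for all 10 libraries (filled) and without sham replicate 2 and OSPa replicate 2 (open). Against sham, the filled points for OS5K run from -1.97 to -0.87 and the open points from -0.72 to -0.16.

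With both GTPase-high libraries left out, a choice made after seeing the data, limma called 0 of 8 members in each of these comparisons. The median member log2 fold changes were then -0.05 for OS5K against OSPa, -0.24 for OSPa against sham, -0.27 for OS5K against sham and -0.27 for all tumour groups against sham. In that setting Gbp3 had the lowest value of the members in OS5K against sham, at -0.72 (SE 0.15, limma adjusted p = 0.480).

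The members varied together across libraries. Pearson's r between pairs of members on the log2(RPKM + 1) scale ran from 0.913 to 0.99 over the 10 libraries, with a median of 0.97, and from 0.672 to 0.991, with a median of 0.873, over the 9 libraries without sham replicate 2. These are descriptions, since the libraries share their groups and a single library carries much of the range.

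The genes whose pattern was most like the mean of the 8 members were sought among 3879 tested genes with a mean of at least 5 RPKM. Among the 8 most similar were, with Pearson's r over the 10 libraries, Cd274 (0.986), Stat2 (0.979), Gbp2b (0.976), Samhd1 (0.969), Zbp1 (0.966), Rnf19b (0.965) and Psmb9 (0.954). Without sham replicate 2 the r of these 7 genes ran from 0.817 (Rnf19b) to 0.939 (Cd274). Samhd1, which encodes an enzyme that breaks down deoxynucleotides, was at 130.9 to 152.4 RPKM in the OS5K libraries, at 143.7 and 179.9 RPKM in the OSPa libraries, and at 140.7 and 237.7 RPKM in the sham libraries. Zbp1, a sensor of nucleic acids, was at 8.36 to 15.6 RPKM in the OS5K libraries, at 9.67 and 27.9 RPKM in the OSPa libraries, and at 15.3 and 54.3 RPKM in the sham libraries. Both were highest in the same 2 libraries as the GTPases, which follows in large part from their choice by similarity to the GTPase mean.

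**Figure D5:**
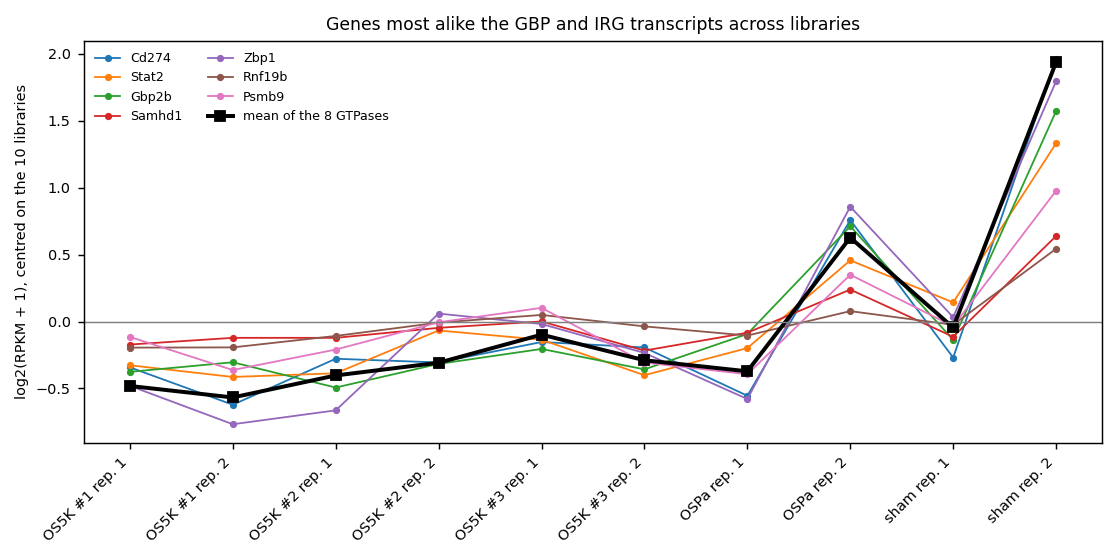
Lines show log2(RPKM + 1) of 7 of the most similar genes and the mean of the 8 GTPases (black), each centred over the 10 libraries, which run along the horizontal axis. The GTPase mean stands at 1.94 in sham replicate 2, 0.63 in OSPa replicate 2 and between -0.57 and -0.04 in the other 8 libraries.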

How the data were processed

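RNA of sorted neutrophils (10 libraries, 5 groups of 2) was made into cDNA with SMART-Seq v4 and into Ion Xpress Plus libraries, per the labels' protocols. The authors deposited RPKM values for 54146 genes. Per the submitters' processing notes the genome build was mm10. What aligner and counting tool were used, and whether strand was, is not given in the sources used here. GENCODE M21 held 54079 of the gene identifiers, 97.7% of them at identical coordinates. With its exon lengths, 84.6% of values above 0 came out as whole reads within 0.02 reads. Read numbers rest on these, and intervals from them would cover counting error only. Replicate libraries differed by more than counting error in each group.

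The 8039 genes that reached 1 RPKM in 2 or more libraries were tested on log2(RPKM + 1), a scale that understates changes of low genes. One limma 3.58.1 model (R 4.3.3, trend and robust) held the 5 group means and left 5 residual degrees of freedom. p-values were adjusted by Benjamini-Hochberg over all tested genes, with a threshold of 0.05. The test was checked on simulated data in which genes of like level shared a typical spread. The members differed more than most genes within sham, so that check does not speak for them. Alternatives were other pseudocounts, filters, variance models and normalizations, limma-voom on recovered reads, the replicate number as a block, fits with only the groups compared, the OS5K mean over fewer lines, and leaving out each library. Leaving out sham replicate 2 and OSPa replicate 2 together was added after seeing the data.

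The members and gene lists were chosen with earlier results of these data known. All members are named, and from other lists up to 6 genes a comparison by smallest p and any gene of interferon-gamma signalling. Genes named for a difference within a pair of replicates, and those named for a level near 0 or as contrasts, were chosen after their values were seen. The most similar genes are the 8 of highest Pearson r with the members' mean, without predicted genes. One gene of the pathway is not reported here.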

Additional observations from a re-analysis of the deposited data

Results flagged for a closer look

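Gbp2 was at 65.87 RPKM in replicate 1 of OS5K #3, and the other 5 OS5K libraries lay between 47.2 and 54.2 RPKM. As a share of the whole range of the 6, the gap between that library and its nearest neighbour passed Dixon's 95% limit. The gap passed it only narrowly. Chance marks about 1 in 20 groups in this way. The rule was tried on each of the 8 tested members, at both ends of the range, and marked Gbp2 alone. It treats the 6 libraries as 1 group, though they come from 3 lines. The value was close to that of sham replicate 1, 65.7 RPKM. The sham and OSPa groups, with 2 libraries each, are too small for this rule.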

How the results depend on the processing

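No member was called in any of the 8 comparisons under the other pseudocounts, filters, variance model, normalizations, groups in the fit, lines in the OS5K mean, or limma-voom. The replicate block also called 0 members. Over all genes it called 21 against 28 without it for OS5K against OSPa, 23 against 28 for OS5K #1, and 14 against 16 for OS5K #3. The labels do not say whether replicate numbers pair the samples, and correlations of the replicate differences between groups cannot decide it. Over the 10 pairs of groups r was over 0.1 in 1, OS5K #1 with OS5K #3 (0.45). The lowest r was -0.38, for OS5K #2 with OS5K #3. Leaving out 1 library at a time, members called ran from 0 to 6 for OS5K and for all tumour groups against sham, and were 0 for OS5K against OSPa and OSPa against sham. Members were called only without sham replicate 1, which leaves the GTPase-high library as the whole sham group. That lone library is assumed to vary like the other groups, so no conclusion is drawn from these counts. Without 1 library, the median member log2 fold change ran from -1.55 to 0.20 (OSPa against sham) and -1.99 to -0.27 (OS5K against sham). It ran from -1.88 to -0.17 (all tumour groups against sham) and -0.98 to -0.05 (OS5K against OSPa). Signs turned in OSPa against sham without sham replicate 2, with ranges over the libraries left out of -1.45 to 0.27 for Gbp2, -2.57 to 0.43 for Gbp5, -1.41 to 0.25 for Gbp7, -1.62 to 0.033 for Igtp, -1.48 to 0.036 for Irgm1, -1.08 to 0.24 for Irgm2 and -3.11 to 0.15 for Ifi47. They turned in OS5K against OSPa without OSPa replicate 2, with ranges of -1.01 to 0.32 for Igtp, -0.69 to 0.13 for Irgm1 and -1.48 to 0.50 for Ifi47, the upper values also without both high libraries. Without both, the medians against sham were -0.27 for OS5K and -0.27 for all tumour groups. Genes called in all for OS5K against OSPa ran from 0 to 37 over the other settings (15 with no filter, 0 without both high libraries) and from 1 to 60 without 1 library. The shifts without a library follow from which libraries enter, and the cause of the others was not tested. Few reads limit Gbp6 and Iigp1, and with 2 libraries a group the spread of sham rests on 1 difference.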

Other observations

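Some interferon-induced genes below the filter on low values were highest in sham replicate 2. Cxcl10, which encodes a chemokine that draws T cells and NK cells, was at 0.181 to 0.774 RPKM in the OS5K libraries, at 0.849 and 0.664 RPKM in the OSPa libraries, and at 0.321 and 6.95 RPKM in the sham libraries. Cxcl9, a related chemokine, was listed at 0 to 0.0442 RPKM in the OS5K and OSPa libraries and at 0.0214 and 0.208 RPKM in the sham libraries. Gbp4, another member of the GBP family, was at 0.0371 to 0.142 RPKM in the OS5K and OSPa libraries and at 0.146 and 0.531 RPKM in the sham libraries. Gbp8 was at 0.120 to 0.359 RPKM in the OS5K and OSPa libraries and at 0.319 and 0.832 RPKM in the sham libraries. All 4 were picked with their values in view and were not tested.

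Of all 8039 tested genes, 26 (0.323%) were higher in replicate 2 by a log2 difference of at least 1 in sham and at least 0.5 in OSPa, limits chosen after seeing the values. The limits lay below the smallest member differences, 1.32 for Irgm2 in sham and 0.52 for Gbp3 in OSPa. That all 8 members were held therefore follows from the limits. Held with them were Gbp2b, Stat2, Irf1, Cd274, Nlrc5, Zbp1, Tap1, Psmb9, Psmb10 and Ifit3. The others included Acod1, which encodes the enzyme that makes itaconate, the chemokine-binding receptor gene Ccrl2, Tagap, Plac8 and Itgb7.

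Ly6a, an interferon-responsive surface protein gene, did not follow the GTPases. It was at 5.60 to 8.56 RPKM in the OS5K libraries, at 2.56 and 2.77 RPKM in the OSPa libraries, and at 5.63 and 5.04 RPKM in the sham libraries. It was called higher in OS5K than in OSPa (log2 fold change 1.15, SE 0.12, limma adjusted p = 0.00774), with all 6 OS5K libraries above both OSPa libraries. Ly6a was the only called gene among the 24 tested interferon-gamma targets in that comparison, which called 28 of 8039 tested genes (0.348%). How its call depends on the processing, or on either OSPa library, was not recorded.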
